A study of Mus musculus with 10 samples.

Results

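The 2′-5′-oligoadenylate synthetase (OAS) genes of the mouse were followed through the response of RAW264.7 macrophages to lipopolysaccharide (LPS) and through 3 concentrations of compound **1**, the E isomer of 9-keto-hexadec-7-enoic acid, an unsaturated keto fatty acid. The genes were chosen by name, as the 8 OAS and OAS-like transcripts *Oas1a*, *Oas1b*, *Oas1c*, *Oas1g*, *Oas2*, *Oas3*, *Oasl1* and *Oasl2*, out of 43432 genes in the count table. All 8 were present in the table and all 8 passed the filter on low counts, which left 14172 genes for testing. The other mouse *Oas1* paralogs and the genes that act on the pathway were taken from lists of their own.

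RAW264.7 is a mouse macrophage-like line made by transformation with Abelson leukemia virus, so all values come from 1 cell line and not from primary macrophages. The 5 groups held 2 libraries each. The DMSO group received 0.5% DMSO as vehicle and no LPS, and the DMSO + LPS group received the same vehicle and 1 µg/mL LPS, a bacterial cell wall component that activates macrophages. The other 3 groups received **1** at 32, 10 or 3.2 µM, 1 h before the same LPS, and RNA was taken after 12 h. No group analysed here received **1** without LPS, and the comparisons of **1** with DMSO + LPS share the same 2 control libraries. The replicates are labelled as biological, but the labels do not say whether they were separate cultures, so p-values measure only the spread between these samples.

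OAS enzymes sense double-stranded RNA, a sign of viral infection, and then join ATP into short 2′-5′-linked oligoadenylates. These oligoadenylates are second messengers that lead to the cleavage of viral and cellular RNA. The genes are classical interferon-stimulated genes: in macrophages, LPS leads to interferon-β release, and interferon acts through the ISGF3 complex, which includes *Stat2* and *Irf9*, on a promoter motif called the interferon-stimulated response element.

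The libraries held 45966803 to 58976377 counts, and values are given as counts per 1000000 counts (CPM) after TMM scaling in edgeR. The summed CPM of 8 macrophage markers was 7853 to 11770 in the 10 libraries, while 4 T cell markers summed to 0.0699 CPM at most and 3 B cell markers to 0.354 CPM at most. One library of the 10 µM group, replicate 1, stood apart: its 4 epithelial markers summed to 38.2 CPM, led by *Krt8* at 22.3 CPM, against 5.78 CPM in replicate 1 of the 3.2 µM group and 0.0850 CPM at most in the other 8. In the same library 4 fibroblast markers summed to 4.43 CPM, against 0.798 CPM at most elsewhere, while all 4 epithelial markers were at 0 in the DMSO + LPS and 32 µM libraries. Replicate 2 of the 32 µM group also differed, since 2 features, *Gm42418* and *Gm23935*, held 3.61% of its counts and 0.263% at most elsewhere. The counts of members called for each dose against DMSO + LPS are given below with and without these libraries, while shares, percentages and correlations use all 10.

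The 8 genes lie in 2 clusters on chromosome 5 in the GRCm38 annotation. *Oasl2* and *Oasl1* stand side by side within chr5:114896936-114937915, both on the plus strand. The other 6 members occupy chr5:120730333-120907521, a span of 177189 bases that runs from *Oas2* and *Oas3* to *Oas1g* and *Oas1a*. Within it, *Oas1b* on the plus strand and *Oas1c* on the minus strand start back to back, with 120 bases between their starts. GENCODE lists *Oas1b*, known for its link to flavivirus resistance in mice, as a polymorphic pseudogene and the other 7 members as protein coding.

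Without LPS the family was already transcribed. *Oas1a*, the main catalytically active *Oas1* enzyme, was the highest member per length, at 51.9 ± 1.75 CPM per kb of exon (SD, n = 2). *Oas3*, *Oasl1*, *Oas1g* and *Oas2* followed at 23.6, 21.8, 18.6 and 17.1 CPM per kb. *Oas1b* at 2.53, *Oas1c* at 1.51 and *Oasl2* at 1.37 CPM per kb formed the low end. In this order the ranges of *Oas3* and *Oasl1*, of *Oas1g* and *Oas2*, and of *Oas1c* and *Oasl2* overlapped, and the other neighbours were apart.

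LPS raised all 8 members. Each was called in DMSO + LPS against DMSO, where a call needs a change of at least 1.5-fold and a Benjamini-Hochberg adjusted p below 0.05 in edgeR's quasi-likelihood test. In that comparison 14.6% of all tested genes were called higher. The median change of the 8 was 1.77 on the log2 scale, against 0.0026 over all genes tested, and the family's share of all counts was 0.176% with LPS and 0.0514% without.

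The OAS-like genes changed most. *Oasl2*, an OAS-like protein with synthetase activity in the mouse, stood at 8.93 and 8.55 CPM without LPS and at 107 and 102 CPM with it. The groups were far apart, and the log2 fold change was 3.58 ± 0.086 (SE, adjusted p = 2.29e-08). *Oasl1*, which lacks synthetase activity and is known as a repressor of *Irf7* translation, stood at 58.4 and 55.3 CPM without LPS and at 573 and 578 CPM with it. Its log2 fold change was 3.34 ± 0.063 (adjusted p = 7.46e-09). At 221 ± 1.56 CPM per kb (SD, n = 2) with LPS it was, as counted, above *Oas1a* at 163 ± 4.36 CPM per kb. *Oasl1* made up 15.7% of the family's summed CPM per kb without LPS and 37.3% with it, whereas the share of *Oas1a* was 37.5% without and 27.6% with LPS.

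Among the synthetases proper, the changes were smaller. *Oas1a* stood at 100.2 and 95.5 CPM without LPS and at 302 and 314 CPM with it, a log2 fold change of 1.65 ± 0.047 (SE, adjusted p = 5.65e-08). *Oas1g*, its closest paralog, stood at 46.4 and 40.8 CPM without LPS and at 153 and 169 CPM with it (log2 fold change 1.89 ± 0.091, adjusted p = 9.64e-07). *Oas1a* and *Oas1g* share 862 of their 75-base transcript windows exactly, which is 47.6% of the windows of *Oas1a* and 36.9% of those of *Oas1g*. Reads from these windows may have been counted for the other gene or dropped, since the handling of reads that match both genes is not given. Each value is uncertain to that extent. Dropped reads would lower the CPM per kb of both genes, so their places in the order per length and the family shares are uncertain too.

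Their sum does not depend on how shared reads were split between them, but it would miss reads that were dropped. *Oas1a* and *Oas1g* together stood at 147 and 136 CPM without LPS and at 455.5 and 483 CPM with it. When all *Oas1* rows were summed before the fit, the log2 fold change was 1.74 ± 0.058 (SE, adjusted p = 1.29e-07 in edgeR). *Oas2*, whose protein carries repeated OAS units, stood at 73.9 and 78.7 CPM without LPS and at 197 and 184 CPM with it. Its log2 fold change was 1.32 ± 0.056 (adjusted p = 4.64e-07).

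*Oas3*, the largest synthetase, which makes long oligoadenylates, stood at 158 and 176 CPM without LPS and at 454 and 434 CPM with it. It was 1.41 ± 0.071 higher on the log2 scale (SE, adjusted p = 1.28e-06). With LPS the order per length, as counted, was *Oasl1*, *Oas1a*, *Oas1g*, *Oas3*, *Oas2*, *Oasl2*, *Oas1b* and *Oas1c*, and no neighbours in it overlapped.

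The divergent pair *Oas1b* and *Oas1c* responded unequally. *Oas1b* stood at 4.97 and 5.13 CPM without LPS and at 26.6 and 27.4 CPM with it, a log2 fold change of 2.42 ± 0.064 (SE, adjusted p = 3.91e-08). *Oas1c* stood at 3.88 and 3.37 CPM without LPS and at 6.55 and 6.32 CPM with it, and its log2 fold change, 0.83 ± 0.11 (adjusted p = 0.000404), was the smallest of the family. Their 95% intervals, 2.27 to 2.57 and 0.57 to 1.09, did not overlap. Counts of *Oas1b* were 1.28 and 1.52 times those of *Oas1c* in the DMSO libraries and 4.06 and 4.33 times with LPS. With 2 libraries against 2, an exact two-sided permutation test of this ratio cannot give a p below 0.333. In GENCODE, *Oas1c* overlaps *Gm43069* and *Oasl1* overlaps *Gm13822* on the other strand, and the sources used here do not say whether counting used the strand. *Gm13822* held 0.264 to 5.44 CPM in the 10 libraries, far below *Oasl1*, and *Gm43069* was not analysed here.

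**Figure D1:**
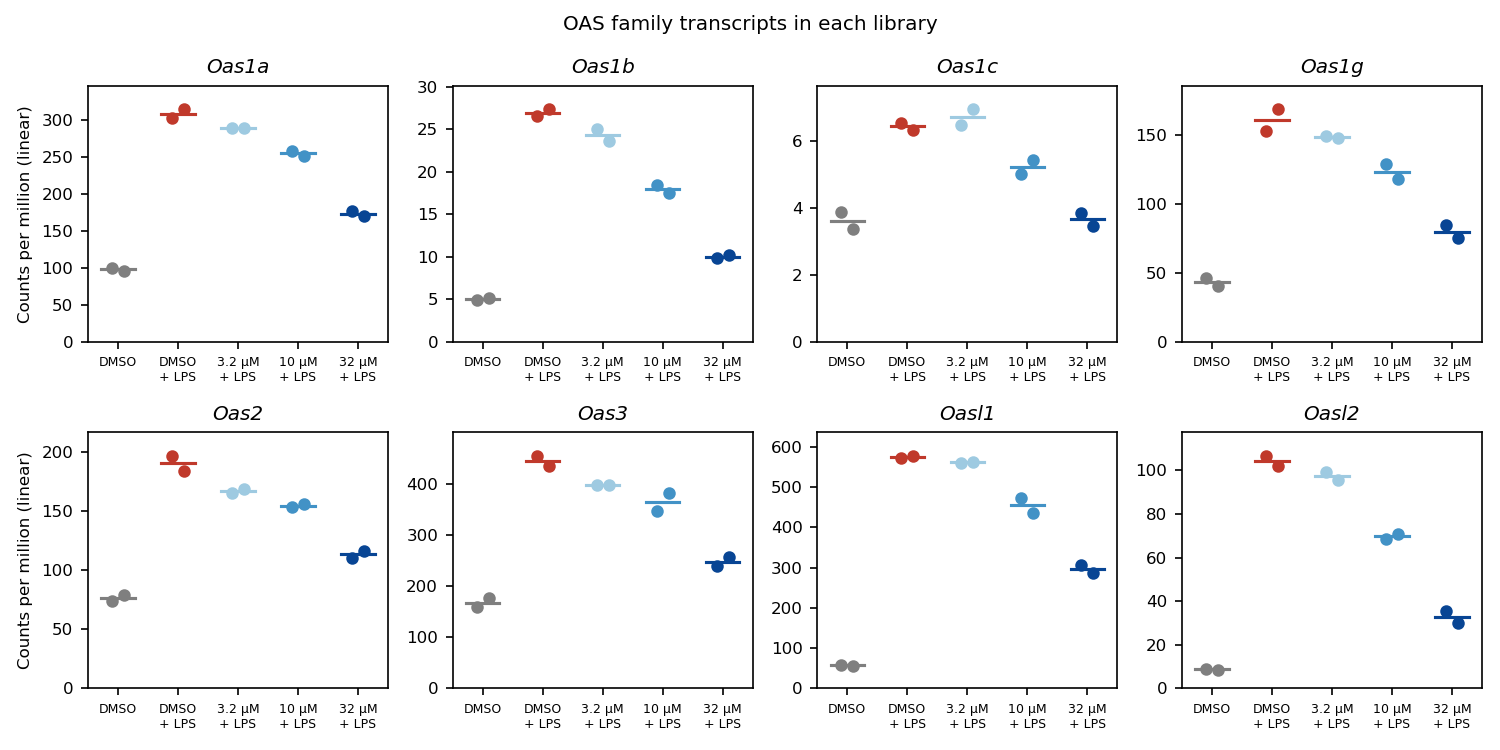
CPM (linear axis from 0) of each OAS family member in the 10 libraries: points are the 2 libraries of each group and bars their means. In every panel both DMSO + LPS points lie above both DMSO points, and both points at 32 µM of **1** lie below both DMSO + LPS points.

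The other 4 *Oas1* paralogs were at the edge of detection. *Oas1d* held 2 to 20 counts per library, *Oas1e* 0 to 2, *Oas1f* 0 to 4 and *Oas1h* 19 to 40. Of these, 2 (*Oas1d* and *Oas1h*) passed the filter, and neither was called in any comparison.

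Promoter sequence was looked up for the members because they moved together, in the RefSeq table of GRCm38.p6, where 6 of the 8 have an entry. *Oas1b* and *Oas2* have none. The 130 bases before each start are shown 5′ to 3′ on the gene's own strand, with matches to the response element letters GAAANNGAAA, on either strand and with overlaps allowed, in capitals.
Oas1a, chr5:120907526-120907655, minus strand: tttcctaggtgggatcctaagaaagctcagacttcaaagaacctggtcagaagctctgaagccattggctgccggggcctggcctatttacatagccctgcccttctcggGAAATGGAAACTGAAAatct
Oas1g, chr5:120887614-120887743, minus strand: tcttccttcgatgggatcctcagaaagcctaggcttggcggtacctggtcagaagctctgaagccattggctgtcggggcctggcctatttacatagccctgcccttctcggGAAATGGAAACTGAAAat
Oas1c, chr5:120812515-120812644, minus strand: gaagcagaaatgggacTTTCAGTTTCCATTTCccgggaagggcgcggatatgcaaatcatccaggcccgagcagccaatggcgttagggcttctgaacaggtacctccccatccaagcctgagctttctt
Oas3, chr5:120777660-120777789, minus strand: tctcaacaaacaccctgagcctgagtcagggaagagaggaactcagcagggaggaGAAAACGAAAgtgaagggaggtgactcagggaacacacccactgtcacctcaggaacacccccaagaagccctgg
Oasl1, chr5:114923110-114923239, plus strand: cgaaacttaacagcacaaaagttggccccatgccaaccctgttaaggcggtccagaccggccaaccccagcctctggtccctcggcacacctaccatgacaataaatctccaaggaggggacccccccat
Oasl2, chr5:114896804-114896933, plus strand: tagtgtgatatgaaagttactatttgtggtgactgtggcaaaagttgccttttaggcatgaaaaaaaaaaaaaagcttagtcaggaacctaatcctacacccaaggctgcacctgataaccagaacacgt

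These letters occurred in 4 of the 6 windows of 250 bases before the start, and in 2.98% of 32851 promoter windows of that length in the table. In *Oas1a* and *Oas1g*, 2 overlapping matches ended 5 and 3 bases before the start, and the windows of this pair were 82.8% identical. In *Oas3* a single match lay 75 to 66 bases before the start. The 2 overlapping matches of *Oas1c* lay 114 to 99 bases before its start and on the opposite strand, in the stretch between the starts of *Oas1c* and *Oas1b*. *Oasl1* and *Oasl2*, the members that LPS raised most, held no match to these letters in this window. The STAT site letters TTCNNNGAA were found in *Oas1a* alone of the 6 (7.02% of all promoters), and the antioxidant response element letters TGACNNNGC, a motif bound by Nrf2, in *Oasl2* alone (10.2% of all promoters).

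At 32 µM, **1** lowered all 8 members relative to DMSO + LPS. All 8 were called lower in edgeR, where 2.91% of all tested genes were. The changes ranged from -0.75 for *Oas2* to -1.68 for *Oasl2* on the log2 scale with a median of -0.90, against a median of 0.0082 over all genes tested.

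*Oasl2* and *Oas1b* fell most. *Oasl2* went from 107 and 102 CPM in the controls to 35.3 and 29.9 CPM, so that its log2 fold change was -1.68 ± 0.078 (SE, adjusted p = 8.94e-06). *Oas1b* was at 9.85 and 10.2 CPM, and its log2 fold change was -1.43 ± 0.062 (adjusted p = 6.57e-06). The 95% intervals of both, -1.86 to -1.50 and -1.57 to -1.29, lay below those of the other 6 members.

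The most abundant members fell less. *Oasl1* was at 308 and 286 CPM at 32 µM (log2 fold change -0.95 ± 0.058, adjusted p = 3.26e-05) and *Oas3* at 239.7 and 256 CPM (log2 fold change -0.84 ± 0.071, adjusted p = 0.000186). *Oas2* was at 110.2 and 117 CPM (log2 fold change -0.75 ± 0.055, adjusted p = 9.58e-05). *Oas1a* was at 176 and 170 CPM (log2 fold change -0.83 ± 0.046, adjusted p = 2.09e-05) and *Oas1g* at 84.9 and 75.2 CPM (log2 fold change -1.01 ± 0.089, adjusted p = 0.000236). The sum of *Oas1* rows, which does not depend on how reads were split among these rows, fell by 0.91 on the log2 scale (SE 0.056, adjusted p = 3.56e-05).

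*Oas1c* returned to its level without LPS. Its 3.84 and 3.47 CPM lay below DMSO + LPS by a log2 fold change of -0.81 ± 0.11 (SE, adjusted p = 0.00279). Against the 3.88 and 3.37 CPM of DMSO the libraries overlapped, and the difference was 0.01 with a 95% interval of -0.25 to 0.28 on the log2 scale. The other 7 members stayed above DMSO at 32 µM with adjusted p-values of 4.16e-08 to 0.000257, and 5 of them, *Oasl1*, *Oasl2*, *Oas1b*, *Oas1g* and *Oas1a*, were called higher, where 13.9% of all tested genes were. *Oas2* and *Oas3*, each 0.57 above DMSO on the log2 scale, lay just under the fold limit, and both were called without replicate 1 of the 32 µM group or without replicate 2 of the DMSO group, which gave 7 calls each.

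Without replicate 2 of the 32 µM group, the library with a high share of *Gm42418* and *Gm23935*, all 8 members were still called lower than DMSO + LPS. The summed CPM of the macrophage markers also moved between these groups, from 10190 to 10320 in DMSO + LPS to 7853 to 8279 at 32 µM. Of the 8 markers, 3 (*Fcgr1*, *Itgam* and *Lyz2*) were called lower and none higher, where 2.91% and 1.27% of all tested genes were. *Lyz2* alone went from a mean of 4127 to 2707 CPM. *Csf1r* was higher at 32 µM, at a mean of 1071 against 814 CPM (log2 fold change 0.40, adjusted p = 0.00118 in edgeR, under the fold limit), and *Cd68* was at 647 against 605 CPM (adjusted p = 0.652). None of the 8 was at 0, and the part of this shift in the fall of the OAS transcripts was not tested. In bulk RNA, fewer cells of a type and less RNA per cell cannot be told apart.

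At 10 µM all 8 members were lower than in DMSO + LPS, but by less than 1.5-fold. Over all genes tested, 45.2% were lower. The log2 fold changes ran from -0.27 for *Oas1a* to -0.58 for *Oas1b* with a median of -0.32, against 0.016 over all genes tested. In edgeR, 5 members had an adjusted p below 0.05 (*Oas1b* at 0.00298, *Oasl2* at 0.00765, *Oas1a* at 0.0224, *Oasl1* at 0.0228 and *Oas2* at 0.0303) and 3 did not (*Oas1g* at 0.0781, *Oas3* at 0.0956 and *Oas1c* at 0.301). All 8 had an unadjusted p below 0.05, as did 1709 of the 14172 genes tested. These 5 depended on the libraries in the fit: 1 was left without either DMSO + LPS library, 2 without either 3.2 µM library, and 0 in a fit of the 4 libraries compared. With all 10 libraries, the count was 6 with the replicate block and 7 with the DESeq2 Wald test or without a filter on low counts. With the fold limit, 0 members were called, where 0.579% of all tested genes were called lower. *Oas1b* and *Oasl2*, 1.499-fold and 1.497-fold lower, sat just inside the limit, and DESeq2 called both, with 2 members in all.

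The values at 10 µM lay between those of the neighbouring doses for all 8 members. *Oasl2* was at 68.7 and 70.7 CPM and *Oas1b* at 18.4 and 17.5 CPM. *Oasl1* was at 473 and 437 CPM, *Oas1a* at 258 and 251 CPM and *Oas1g* at 129 and 119 CPM. *Oas3* was at 346 and 382 CPM, *Oas2* at 153 and 156 CPM and *Oas1c* at 5.01 and 5.42 CPM. All of these were above the matching values at 32 µM and below those at 3.2 µM.

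The 10 µM values include the library with 38.2 CPM of epithelial markers. Without it, 1 member was called (*Oas1b*, log2 fold change -0.62, adjusted p = 0.0142, with 5.43e-08 to 0.084 over all alternatives) and 3 had an adjusted p below 0.05. Without both libraries that held epithelial markers, 0 members were called and 0 had an adjusted p below 0.05, in a fit with 1 library in each of these groups that are assumed to vary like the others. The part of the epithelial RNA in the OAS values was not tested. The summed macrophage markers were also lower at 10 µM, at 8376 to 9162 CPM, with 6 of the 8 below DMSO + LPS. Of the 8, 1, *Fcgr1*, was called lower, where 0.579% of all tested genes were. The median log2 fold change over the 8 markers was -0.27, and the part of this shift was not tested either.

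At 3.2 µM, 7 of the 8 members were lower than in DMSO + LPS and 1, *Oas1c*, was not, where 48.2% of all tested genes were lower. The differences were small. The log2 fold changes ran from -0.19 for *Oas2* to 0.06 for *Oas1c*, with a median of -0.11 against 0.0040 over all genes tested. In edgeR 0 members and 0% of all tested genes were called lower, and no gene of either direction was. At an unadjusted p below 0.05 there were 3 members (*Oas2*, *Oas1b* and *Oas3*) and 600 genes. DESeq2 called 8 genes and 0 members. Fitted on the 4 libraries compared, edgeR called 66 genes, 48 higher and 18 lower, and 0 members, with *Oas3* (adjusted p = 0.0244) and *Oas2* (adjusted p = 0.0282) below 0.05. *Oas2* was at 165 and 169 CPM against 197 and 184 CPM, a log2 fold change with a 95% interval of -0.32 to -0.062, so that a fall of more than 0.32 lay outside it. *Oasl1*, at 561 and 563 CPM, differed from DMSO + LPS by -0.03, with an interval of -0.17 to 0.099. Without replicate 1 of the 3.2 µM group, which held 5.78 CPM of epithelial markers, 0 members were called.

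**Figure D2:**
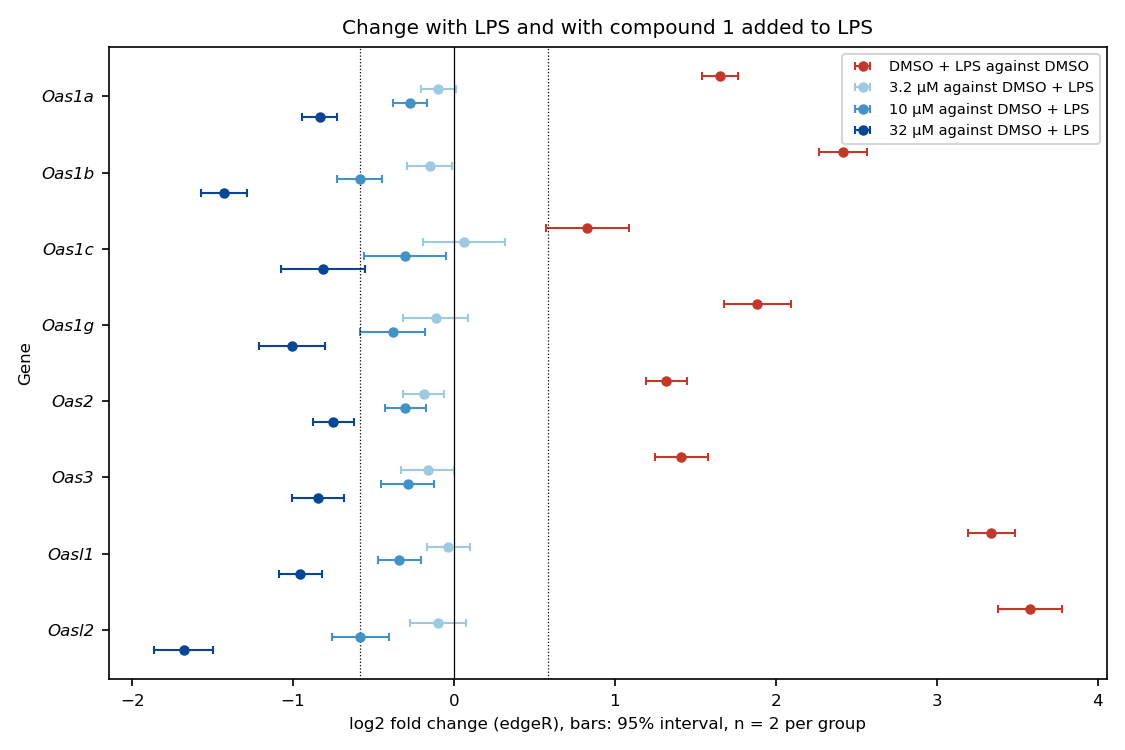
Log2 fold change with its 95% interval (edgeR, 2 libraries per group) of the 8 members for DMSO + LPS against DMSO and for each concentration of **1** against DMSO + LPS; dotted lines mark a 1.5-fold change. The points at 32 µM lie left of the lower line for all 8 members, from -0.75 to -1.68, and those at 10 µM lie right of it, *Oas1b* and *Oasl2* right beside it.

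The doses were also compared with each other. Between 32 and 10 µM, all 8 members were lower at 32 µM and 7 had an adjusted p below 0.05 in edgeR (*Oas1c* had 0.0677). Of these, 4 were called, *Oasl2* (log2 fold change -1.10), *Oas1b* (-0.84), *Oas1g* (-0.63) and *Oasl1* (-0.62), where 1.15% of all tested genes were called lower. This count rests on the spread estimated from all groups: fitted on the 4 libraries alone, the fold changes of these 4 were -1.09, -0.84, -0.63 and -0.61 and 0 members were called, with adjusted p-values of 0.0756 to 0.161. Over all alternatives those of the 4 ran from 5.75e-31 (*Oasl2*) to 0.161 (*Oas1g*). Without replicate 1 of the 10 µM group, or without replicate 2 of the 32 µM group, *Oas1g* and *Oasl1* fell short of the fold limit, *Oas3* passed, and 3 members were called.

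Between 10 and 3.2 µM, all 8 were lower at 10 µM, where 47.5% of all tested genes were lower. Of the 8 members, 2 had an adjusted p below 0.05 in edgeR (*Oas1b* at 0.0235 and *Oasl2* at 0.0357). With the fold limit 0 members were called, where 0.183% of all tested genes were called lower. At an unadjusted p below 0.05 there were 6 members and 1187 of all genes tested, and DESeq2 also called 0 members. No member had an adjusted p below 0.05 when any 1 of the DMSO + LPS, 10 µM or 3.2 µM libraries was left out, or in a fit of the 4 libraries compared.

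Expressed as the part of the LPS-induced increase in CPM that remained, the members kept a median of 30.0% at 32 µM, 68.4% at 10 µM and 90.1% at 3.2 µM. At 32 µM the range ran from 1.285% for *Oas1c* (-5.27% and 7.84% in its 2 libraries) to 46.3% for *Oasl1* (44.2% and 48.4%). *Oasl2*, the neighbour of *Oasl1* with a similar fold response to LPS, kept 22.1% and 27.7%, well below it. *Oas1b* kept 21.9% and 23.5%, and *Oas1a*, *Oas1g*, *Oas2* and *Oas3* had means of 29.1% to 35.6%. At 10 µM the means ran from 56.6% for *Oas1c* to 76.7% for *Oasl1*, and at 3.2 µM from 79.6% for *Oas2* to 109.6% for *Oas1c*.

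**Figure D3:**
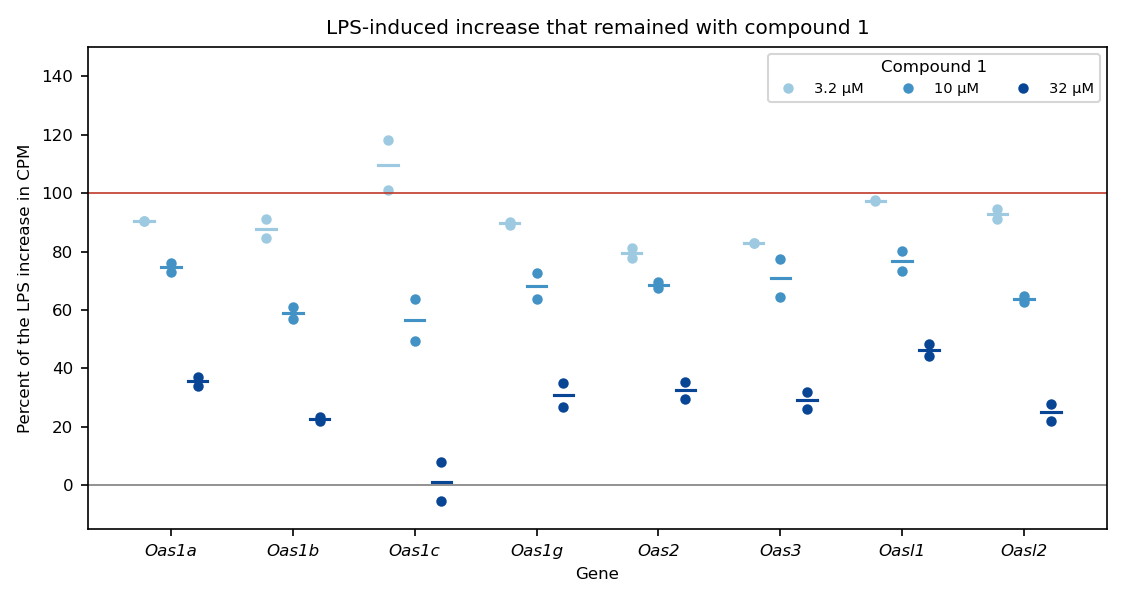
Percent of the LPS-induced increase in CPM that remained at 3.2, 10 and 32 µM of **1** for each member: points are the 2 libraries, bars their mean, 100% is the mean of DMSO + LPS and 0% that of DMSO. Every member lies lower at 32 µM than at 10 µM and lower at 10 µM than at 3.2 µM, and *Oas1c* at 32 µM lies on either side of 0%.

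The order of the members by abundance was led by the same genes at 32 µM as with LPS alone. As counted, *Oasl1* remained the most abundant member per length at 114 ± 5.86 CPM per kb at 32 µM, followed by *Oas1a* at 91.6 ± 2.42 (SD, n = 2). The shares of *Oasl1* in the family's summed CPM per kb were 36.5%, 37.0% and 38.8% at 32, 10 and 3.2 µM, next to 37.3% in DMSO + LPS and 15.7% in DMSO. For *Oasl2* this share was 2.77% with LPS alone, against 1.64% at 32 µM, and for *Oas1b* it was 2.29% against 1.61%. The sum over all 8 members, 139.9 and 137 CPM per kb without LPS, was 587 and 596 with LPS alone. With **1** added it came to 318 and 305 (32 µM), 479 and 463 (10 µM), or 555.9 and 556.1 (3.2 µM). In the order at 32 µM, *Oas3* and *Oas1g* overlapped and so did *Oasl2* and *Oas1b*.

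The ratio of the divergent pair moved as well. Counts of *Oas1b* were 2.56 and 2.94 times those of *Oas1c* at 32 µM, 3.68 and 3.24 times at 10 µM and 3.86 and 3.39 times at 3.2 µM. The ratios at 32 µM lay between those of DMSO and those of the other LPS groups. The ratio of *Oas1a* to *Oas1g* counts stayed between 1.86 and 2.34 in all libraries.

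The list of genes acting on the pathway was short, with 3 genes. *Akap7*, whose protein can degrade 2′-5′-oligoadenylates, was at 7.74 and 7.68 CPM without LPS but at 4.72 and 4.24 CPM with it, and its log2 fold change was -0.78 ± 0.098 (SE, adjusted p = 0.000265). It was called lower, as were 13.6% of all tested genes, and at 32 µM it stood at 4.52 and 4.31 CPM, within the range of DMSO + LPS. *Pde12*, another phosphodiesterase of these oligoadenylates, was at 42.1 to 48.4 CPM in all 10 libraries, and *Abce1*, a ribosome recycling factor, at 268 to 335 CPM. Neither was called in any of the comparisons. Of the 3 genes of this list, 0 were called higher with LPS, against 14.6% of all tested genes, and 1 lower. At the doses of **1** against DMSO + LPS 0 were called, with 0 at an unadjusted p below 0.05 in edgeR, where 2.91% (32 µM), 0.579% (10 µM) and 0% (3.2 µM) of all tested genes were called lower. Among 3 genes such counts of 0 are near these shares.

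**Figure D4:**
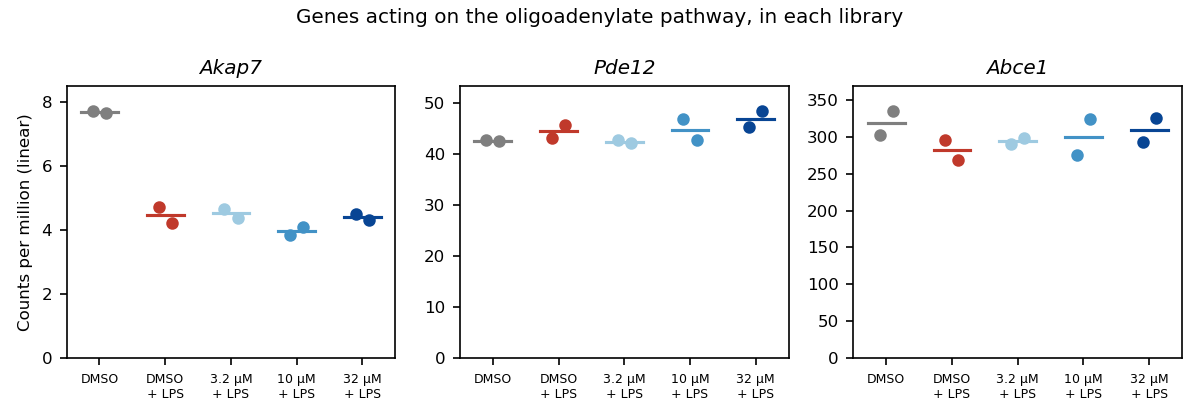
CPM (linear axes from 0) of *Akap7*, *Pde12* and *Abce1* in the 10 libraries: points are the 2 libraries of each group and bars their means. *Akap7* is lower in all 8 LPS libraries than in the 2 DMSO libraries, while *Pde12* and *Abce1* show no called change.

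A list of 9 genes of interferon production and signaling was also followed, as transcripts only. With LPS, 5 were called higher and 0 lower: *Ifnb1*, *Irf7*, *Stat2*, *Irf9* and *Tyk2*, where 14.6% of all tested genes were called higher. *Ifnb1*, which encodes interferon-β, held 4 and 6 counts without LPS but 60 and 58 with it, and its log2 fold change was 3.68 ± 0.33 (SE, adjusted p = 3.71e-05). At 32 µM it held 12 and 11 counts (log2 fold change -2.21 ± 0.30, adjusted p = 0.00241).

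At 32 µM, 3 of the 9 were called lower, the others being *Irf7* (log2 fold change -1.48) and *Stat2* (-1.45), where 2.91% of all tested genes were called lower. *Stat2* was at 204 and 193 CPM with LPS alone, but **1** at 32 µM left it at 71.5 and 73.7 CPM. These values were near the 60.55 and 64.7 CPM of DMSO, but *Stat2* was still 0.21 above DMSO on the log2 scale (adjusted p = 0.00841 in edgeR). *Irf9*, which pairs with it in ISGF3, was at 133 and 133 CPM with LPS alone, then at 109 and 111 CPM with 32 µM of **1**; this difference of -0.28 on the log2 scale (adjusted p = 0.00498 in edgeR) lay under the fold limit. The receptor genes *Ifnar1* and *Ifnar2* and the kinase gene *Jak1* were not called in either comparison. With LPS, *Jak1* was 0.42 higher on the log2 scale (adjusted p = 0.000879 in edgeR) and *Ifnar2* 0.48 lower (adjusted p = 0.0356), both under the fold limit. *Irf1* was 0.41 lower at 32 µM (adjusted p = 0.0165), also under that limit. At 10 µM, where 0.579% of all tested genes were called lower, *Stat2* was the 1 gene called of this list (log2 fold change -0.65, adjusted p = 0.000966, and -0.66 with adjusted p = 0.00501 without replicate 1 of the 10 µM group), and at 3.2 µM none was, with 2 at an unadjusted p below 0.05 in edgeR.

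Other interferon-stimulated genes that bind or modify double-stranded RNA moved with the family. Of 6 such genes, *Eif2ak2* (the kinase PKR), *Adar*, *Ddx58* (RIG-I), *Ifih1* (MDA5), *Dhx58* and *Zbp1*, all 6 were called higher with LPS (log2 fold change 1.14 to 4.90; 14.6% of all tested genes) and all 6 lower at 32 µM (-0.68 to -2.14, against 2.91% of all tested genes). The median at 32 µM was -1.28, next to -0.90 for the OAS members. *Zbp1*, a sensor of Z-form nucleic acids, was at 137 and 138 CPM with LPS alone. **1** brought it to 32.9 and 29.7 CPM (32 µM) or 86.1 and 78.8 CPM (10 µM). It was the 1 gene of this list called at 10 µM, against 0.579% of all tested genes called lower (log2 fold change -0.74, adjusted p = 0.00177, and -0.80 with adjusted p = 0.00428 without replicate 1 of the 10 µM group), and at 3.2 µM none was, with 0 at an unadjusted p below 0.05 in edgeR and 0 called by DESeq2.

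The genes whose pattern was most like the family's were found by Pearson correlation over the 10 libraries with the members' mean standardized log2 CPM, among genes outside these lists with a mean of at least 5 CPM. They were *Mx2* (r = 0.9996), *Uba7* (0.9986), *Parp10* (0.9984), *H2-T22* (0.9983) and *Cmpk2* (0.9982). These r values describe 10 points in 5 groups that share their controls, and carry no test. *Mx2*, an interferon-induced antiviral GTPase, was at 3.09 and 3.26 CPM without LPS, 46.6 and 46.1 CPM with LPS alone, then 11.0 and 10.7 CPM when 32 µM of **1** was added. Among the members, the correlation with the mean of the other 7 was 0.882 for *Oas1c*, 0.952 for *Oasl1* and 0.989 to 0.996 for the other 6.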

How the data were processed

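Poly(A) RNA of RAW264.7 cells was made into 10 stranded libraries and sequenced as paired ends by the authors, whose processing notes name Trimmomatic, FastQC, STAR, DESeq2 and mm10; versions, the counting tool, its use of strand and its treatment of multi-mapping reads are not given in the sources used here. The authors deposited raw counts per Ensembl gene, with no normalization. Groups were taken from the sample labels. Symbols, positions and exon lengths came from GENCODE on GRCm38.

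The counts were fitted in edgeR 4.0.16 (R 4.3.3; limma 3.58.1) with TMM scaling, filterByExpr at a minimum count of 10, all 10 libraries and 1 mean per group, and tested by the quasi-likelihood F test with Benjamini-Hochberg adjustment over 14172 genes. A call needs 1.5-fold and an adjusted p below 0.05. Standard errors are the absolute log2 fold change over the square root of F. CPM values use the TMM-scaled library sizes, and CPM per kb divides by exon length. The libraries held 45966803 to 58976377 counts, and the common coefficient of variation was 0.128; the members held 157 to 32784 counts per library. The script was tested on simulated data.

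The 8 members, the lists and the tests were chosen with earlier results of these data known. Named were the 8 members, the genes of the fixed lists other than a few that are not reported here, and the 5 genes most correlated with the family (log2 of CPM + 0.5). *Gm42418* and *Gm23935* were chosen after their values were seen. Alternatives were DESeq2 1.42.0 and its size factors, other filters, a replicate block, fits on the compared groups alone and leaving out each library; leaving out both libraries with epithelial markers and a crossed block were added after seeing the data.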

Additional observations from a re-analysis of the deposited data

How the results depend on the processing

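The counts of members called were recomputed under 18 alternatives. The 8 calls with LPS and the 8 at 32 µM were made under all of them, the 0 at 3.2 µM and the 0 between 10 and 3.2 µM likewise, and 5 to 7 of the members were called at 32 µM against DMSO. At 10 µM against DMSO + LPS the count of 0 became 2 with DESeq2 size factors, 2 without a filter on low counts and 2 with the DESeq2 Wald test, and ran from 0 to 2 when each library was left out in turn, because *Oas1b* and *Oasl2* lie next to the fold limit. Between 32 and 10 µM the 4 calls became 0 when edgeR was fitted on the 4 libraries compared, with its own estimate of the spread, and ran from 3 to 5 over the left-out libraries. The summed *Oas1* rows kept a log2 fold change of -0.96 to -0.87 at 32 µM, with adjusted p-values of up to 0.00122. No called value changed sign.

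Replicate differences correlated with r of 0.385 to 0.851 in all 6 pairs among DMSO and the 3 doses of **1**, and of -0.433 to -0.211 in the 4 pairs with DMSO + LPS. The labels do not say what a number shares, and not every pair was positive, so the samples were not treated as paired. With the replicate block, 8 members were called with LPS, 8 at 32 µM, 0 at 10 µM and 4 between 32 and 10 µM, and all genes called at 10 µM were 174 against 122 without it. With the DMSO + LPS numbers crossed, the block gave 8, 8, 0 and 4 members in the same comparisons, while members with an adjusted p below 0.05 went from 5 to 7 at 10 µM and from 2 to 5 between 10 and 3.2 µM. Depth limits *Ifnb1* and the minor *Oas1* paralogs, at 60 counts or fewer per library.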
